A study of Homo sapiens with 6 samples.

Results

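The integrated stress response genes ATF3, DDIT3, PPP1R15A and SLC3A2 were taken by symbol from RNA-seq tables of ES2, a human ovarian cancer cell line. They are 4 of the 771 entries that carry a gene symbol among 1113 listed entries, and all 4 were found in each of the 6 libraries. Of these libraries, 3 came from cells given an antisense oligonucleotide (ASO) against RUNX1-IT1, a long non-coding RNA whose gene lies inside RUNX1, and 3 from cells given a control ASO. An ASO is a synthetic oligonucleotide that base-pairs with its target RNA and can lead to the loss of that RNA. The labels call the cells epithelial ovarian cancer cells and name the groups RUNX1-IT1 knockdown and Control. Both groups were grown in the same serum-supplemented medium, libraries were made for messenger RNA, and the labels give neither the ASO sequences nor the treatment time. The labels number the replicates without saying that they were separate cultures, so p-values measure only the spread between these libraries, which may be technical. The comparison asks which genes differ in level after RUNX1-IT1 knockdown. RUNX1-IT1 itself is not listed in the tables, so the level of the target was not analysed here.

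The integrated stress response is a pathway in which kinases that sense unfolded proteins, amino acid shortage, viral RNA or heme shortage phosphorylate the translation factor eIF2. Most protein synthesis then slows, while the messenger RNA of the transcription factor ATF4 is translated more. ATF4 turns on genes for amino acid supply, further transcription factors and a phosphatase subunit that reverses the phosphorylation of eIF2. Several of these genes also answer to other inputs, such as DNA damage for ATF3 and PPP1R15A.

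The 1113 entries summed to 3628 to 3894 CPM (read counts relative to the size of the library) in RUNX1-IT1 ASO libraries and to 10175 to 11070 CPM in control ASO libraries. They therefore hold 0.363 to 0.389% of each RUNX1-IT1 ASO library and 1.02 to 1.11% of each control ASO library. In 1112 of them the group means were 2-fold or more apart, and 1081 were lower under the RUNX1-IT1 ASO. The tables thus appear to hold a preselection of genes that differ between the very libraries compared here. A low adjusted p for a listed gene is for that reason not independent evidence of a change. Among 17 ovarian epithelial markers, PAX8 and ESR1 were listed, with PAX8 at a mean of 2.98 CPM under the RUNX1-IT1 ASO and 7.16 CPM under the control ASO. Of 11 immune cell markers ITGAM was listed, at 0.059 to 0.214 CPM under the RUNX1-IT1 ASO and 1.62 to 1.84 CPM under the control ASO. No fibroblast, endothelial or mitochondrially encoded gene of the lists was listed, so sample composition and RNA quality could not be read from them. In bulk RNA, fewer expressing cells and less RNA per cell cannot be told apart.

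Promoter windows of the 4 genes are shown because the stress pathway acts on them through transcription factors with a basic leucine zipper (bZIP), the class to which ATF4, ATF3 and the DDIT3 product belong. Each window runs from 250 bases before to 50 bases after a RefSeq transcription start on GRCh38.p14, 5′ to 3′ on the strand of the gene. RefSeq lists 2 windows for ATF3, 2 for DDIT3, 1 for PPP1R15A and 3 for SLC3A2, and the window listed at the top for each gene is printed. Capitals mark matches, on either strand, to TGACGTCA (ATF/CRE), TGATGNAA (the C/EBP-ATF composite element) or TGANTCA (AP-1). Which start ES2 cells used was not measured.
ATF3, chr1:212565157-212565456, plus strand: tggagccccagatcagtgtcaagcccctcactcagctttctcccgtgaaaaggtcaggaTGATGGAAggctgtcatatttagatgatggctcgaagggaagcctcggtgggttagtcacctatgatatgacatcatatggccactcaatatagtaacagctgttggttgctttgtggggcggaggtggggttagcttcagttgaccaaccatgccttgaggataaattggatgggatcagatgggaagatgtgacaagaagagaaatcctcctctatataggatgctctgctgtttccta
DDIT3, chr12:57520465-57520764, minus strand: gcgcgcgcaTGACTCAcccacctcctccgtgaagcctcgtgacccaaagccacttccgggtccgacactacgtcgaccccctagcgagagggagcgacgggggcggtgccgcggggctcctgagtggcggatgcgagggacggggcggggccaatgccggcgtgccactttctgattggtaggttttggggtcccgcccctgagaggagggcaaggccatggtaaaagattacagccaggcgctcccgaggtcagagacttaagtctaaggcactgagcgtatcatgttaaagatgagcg
PPP1R15A, chr19:48872171-48872470, plus strand: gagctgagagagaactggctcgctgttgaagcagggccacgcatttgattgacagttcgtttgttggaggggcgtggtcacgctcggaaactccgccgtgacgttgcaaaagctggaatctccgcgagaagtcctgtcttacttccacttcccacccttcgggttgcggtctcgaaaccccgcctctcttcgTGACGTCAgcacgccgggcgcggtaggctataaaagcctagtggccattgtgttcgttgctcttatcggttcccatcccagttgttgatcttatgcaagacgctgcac
SLC3A2, chr11:62881449-62881748, plus strand: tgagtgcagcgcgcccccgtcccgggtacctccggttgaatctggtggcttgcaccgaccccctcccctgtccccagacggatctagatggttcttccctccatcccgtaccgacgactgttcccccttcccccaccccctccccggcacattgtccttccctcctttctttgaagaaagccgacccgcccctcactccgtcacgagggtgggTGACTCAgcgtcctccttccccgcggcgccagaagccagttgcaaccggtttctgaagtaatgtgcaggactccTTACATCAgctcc

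The PPP1R15A window held an ATF/CRE match from base -58 to -51, a letter run found in 1.85% of 35116 RefSeq promoter windows of the same length. The ATF3 window held a composite match from -191 to -184, and the SLC3A2 window held one from 38 to 45, downstream of the start. This composite was found in 3.62% of all windows. AP-1 letters stood from -241 to -235 in the DDIT3 window and from -37 to -31 in the SLC3A2 window, and were found in 7.71% of all windows. Positions count from the start as base 1 with no base 0. The TATA letters TATAAA stood from -30 to -25 in PPP1R15A and were found in 11.5% of all windows. In the ATF3 window not printed they stood farther upstream, from -230 to -225. The E-box CACGTG was in none of the 8 windows of the 4 genes and in 7.26% of all windows. CCAAT and GGGCGG each stood in at least 1 window of ATF3, DDIT3 and SLC3A2 and in none of PPP1R15A. CCAAT was found in 34.6% of all windows and GGGCGG in 45.0%. The 3 bZIP motifs share no letters in any printed window, and a match is a description of the letters, not of binding.

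The transcription factor genes ATF3 and DDIT3 stood far lower under the RUNX1-IT1 ASO, the phosphatase subunit gene PPP1R15A and the transporter gene SLC3A2 less so. ATF3 was 9.54-fold lower, DDIT3 4.47-fold, SLC3A2 2.42-fold and PPP1R15A 2.33-fold (ratios of group means, n = 3 libraries each). All 4 passed the whole-table test as lower, where 97.5% of the 489 tested genes did and 2.04% passed as higher. For none of the 4 did the groups overlap, and for 97.1% of the 489 tested genes they did not overlap downward either. The shared direction of the 4 genes is therefore the direction of nearly every listed gene, and what differed among them was the size.

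ATF3 encodes a bZIP transcription factor that is low in resting cells of many kinds and is induced by ATF4 and by other stress signals. It stood at 5.40, 7.04 and 6.03 CPM in replicates 1, 2 and 3 given the RUNX1-IT1 ASO, and at 59.6, 57.0 and 59.6 CPM in replicates 1, 2 and 3 given the control ASO. The groups did not overlap, and the lowest control ASO library was 8.10 times the highest RUNX1-IT1 ASO library. These values rest on 101 to 131 reads per RUNX1-IT1 ASO library and 985 to 1265 per control ASO library. The mean was 6.16 ± 0.829 CPM under the RUNX1-IT1 ASO and 58.8 ± 1.49 CPM under the control ASO (SD, n = 3 each). On the log2(CPM + 1) scale the change was -3.07 ± 0.10 (SE, limma, adjusted p = 1.2e-10), the second lowest of the 489 tested genes. By the plain ratio of means, which does not shrink low genes, ATF3 ranked 18 of 489, counted from the lowest. The coefficient of variation was 13.5% in RUNX1-IT1 ASO libraries, against 9.46% from counting alone, and 2.54% in control ASO libraries, against 2.95% from counting alone. In GENCODE release 29 on GRCh38 the gene (ENSG00000162772.16) lies on chromosome 1 from 212565334 to 212620777, with 8 coding transcripts.

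DDIT3 encodes CHOP, a bZIP protein that pairs with C/EBP factors and is known for promoting cell death when endoplasmic reticulum stress lasts. It stood at 11.9, 15.5 and 15.6 CPM in replicates 1, 2 and 3 given the RUNX1-IT1 ASO, and at 63.5, 58.3 and 70.8 CPM in replicates 1, 2 and 3 given the control ASO. The groups did not overlap, and RUNX1-IT1 ASO replicate 1 was the lowest of all 6. The mean was 14.3 ± 2.10 CPM under the RUNX1-IT1 ASO and 64.2 ± 6.31 CPM under the control ASO (SD, n = 3 each). The change was -2.09 ± 0.11 on the log2(CPM + 1) scale (SE, limma, adjusted p = 2.89e-09), and 5.11% of tested genes had a lower one. By the ratio of means DDIT3 ranked 119 of 489, counted from the lowest. Reads were 223 to 289 per RUNX1-IT1 ASO library and 1006 to 1503 per control ASO library. DDIT3 (ENSG00000175197.12) lies on chromosome 12 from 57516588 to 57521737 on the minus strand. MARS, the methionyl-tRNA synthetase gene on the opposite strand, shares 355 exonic bases with it, 27.2% of the merged DDIT3 exons. MBD6 on the opposite strand shares 58 bases, and AC022506.1 on the same strand shares 105. How the authors assigned reads there is not given in the sources used here, so a part of the DDIT3 value can come from these genes, none of which is listed.

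PPP1R15A encodes GADD34, the subunit that directs protein phosphatase 1 to eIF2 and so ends the translational arrest. It stood at 163, 184 and 189 CPM in replicates 1, 2 and 3 given the RUNX1-IT1 ASO, and at 423, 399.7 and 425 CPM in replicates 1, 2 and 3 given the control ASO. The groups did not overlap, and the lowest control ASO library was 2.11 times the highest RUNX1-IT1 ASO library. PPP1R15A averaged 179 ± 14.0 CPM under the RUNX1-IT1 ASO and 416 ± 14.1 CPM under the control ASO (SD, n = 3 each). The log2(CPM + 1) change was -1.22 ± 0.07 (SE, limma, adjusted p = 5.77e-09), and 39.1% of tested genes had a lower one. By the ratio of means it ranked 367 of 489 from the lowest, so most tested genes fell by a larger factor. Most of those genes have lower levels. The 23 tested genes at 100 CPM or more in control ASO libraries had a median log2(CPM + 1) change of -1.27. This is close to that of PPP1R15A, and the highest of the 23 was -1.04. Since the listed genes appear preselected at about 2-fold, genes of this level that changed less are absent. Both comparisons are therefore with listed genes only, not with all expressed genes. Reads were 3040 to 3422 per RUNX1-IT1 ASO library and 6902 to 9016 per control ASO library, the deepest of the 4 genes. The replicate spread was 7.86% in RUNX1-IT1 ASO libraries, against 1.76% from counting alone, so counting error was a small part of it. PPP1R15A (ENSG00000087074.7) lies on chromosome 19 from 48872392 to 48876057 on the plus strand, and no other annotated gene shares its exons.

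SLC3A2 encodes the CD98 heavy chain, which carries amino acid transporter light chains such as SLC7A5 and SLC7A11 to the cell surface. It stood at 142, 177 and 165 CPM in replicates 1, 2 and 3 given the RUNX1-IT1 ASO, and at 392, 367 and 414 CPM in replicates 1, 2 and 3 given the control ASO. The groups did not overlap, and the lowest control ASO library was 2.08 times the highest RUNX1-IT1 ASO library. SLC3A2 averaged 161 ± 17.8 CPM under the RUNX1-IT1 ASO and 391 ± 23.5 CPM under the control ASO (SD, n = 3 each). The log2(CPM + 1) change was -1.28 ± 0.08 (SE, limma, adjusted p = 1.47e-08), and 33.1% of tested genes had a lower one. By the ratio of means SLC3A2 ranked 341 of 489 from the lowest, again behind most tested genes. Its log2(CPM + 1) change was close to the median of -1.27 of the 23 tested genes at 100 CPM or more in control ASO libraries. Here too genes of that level that changed by clearly less than 2-fold are absent, so the comparison is with listed genes only. SLC3A2 (ENSG00000168003.16) lies on chromosome 11 from 62856102 to 62888875 on the plus strand, with 12 coding transcripts. For each of the 4 genes an exact two-sided permutation test over libraries gave p = 0.10, the smallest that 3 against 3 allows. Groups did not overlap downward for 97.1% of all tested genes.

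**Figure D1:**
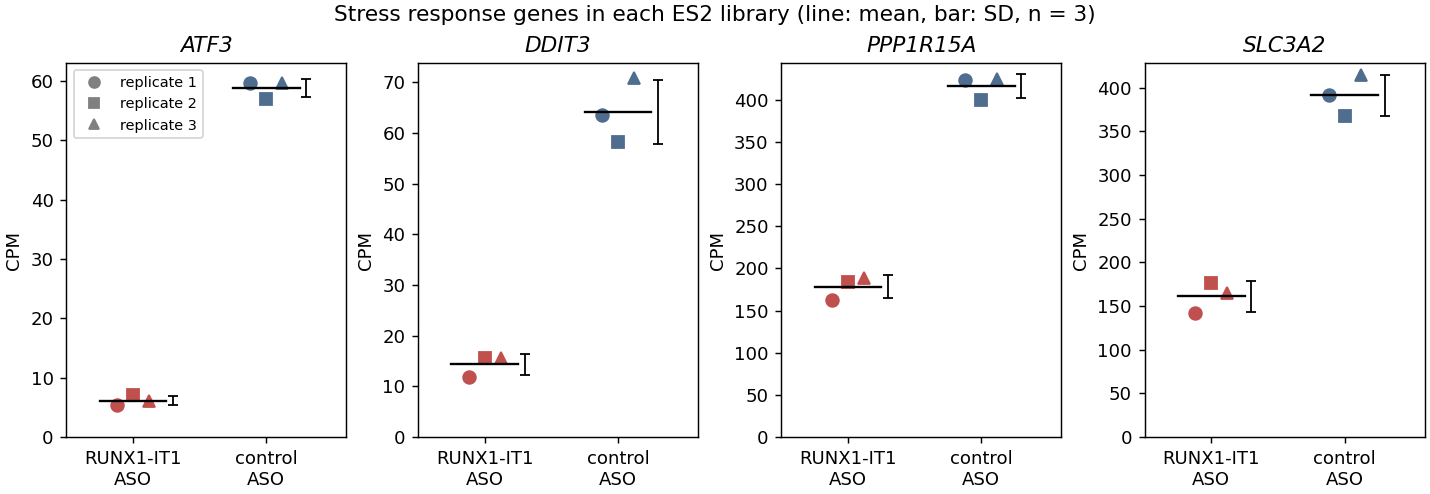
CPM of ATF3, DDIT3, PPP1R15A and SLC3A2 in each library, with RUNX1-IT1 ASO left of control ASO in each panel, a line at the mean and a bar for the SD (n = 3). In each panel all 3 RUNX1-IT1 ASO points lie below all 3 control ASO points, and ATF3 shows the widest gap in proportion, at 6.16 against 58.8 CPM.

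Within each group the same library was lowest for all 4 genes, while the highest differed among genes. RUNX1-IT1 ASO replicate 1 was the lowest of its group for all 4 genes, and control ASO replicate 2 was the lowest of its group for all 4. The same libraries also had the lowest sums over all listed entries, 3628 CPM in RUNX1-IT1 ASO replicate 1 and 10175 CPM in control ASO replicate 2. The part of these library differences in the spread of the 4 genes was not tested. Without RUNX1-IT1 ASO replicate 1 the changes were -2.99 for ATF3, -1.97 for DDIT3, -1.15 for PPP1R15A and -1.19 for SLC3A2, all still called lower (limma).

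Per kilobase of the longest coding transcript, PPP1R15A and SLC3A2 had the higher levels of the 4 genes and ATF3 the lowest. PPP1R15A stood at 75.1 ± 5.90 CPM per kb in RUNX1-IT1 ASO libraries and 175 ± 5.92 in control ASO libraries (SD, n = 3 each). SLC3A2 stood at 72.6 ± 8.01 CPM per kb in RUNX1-IT1 ASO libraries and 176 ± 10.6 in control ASO libraries. At this choice of length these neighbours did not differ beyond their spread, and SLC3A2 was above PPP1R15A in 1 library of each group. Their near equality depends on that choice, since merged exons cover 5178 bases in SLC3A2 and 3093 in PPP1R15A. The longest coding transcripts have 2222 and 2378 bases, and which transcripts the cells used was not measured. DDIT3 followed at 13.4 ± 1.97 CPM per kb in RUNX1-IT1 ASO libraries and 60.2 ± 5.92 in control ASO libraries. ATF3 was lowest, at 3.03 ± 0.408 CPM per kb in RUNX1-IT1 ASO libraries and 28.9 ± 0.735 in control ASO libraries. The order of DDIT3 above ATF3 held in all 6 libraries.

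**Figure D2:**
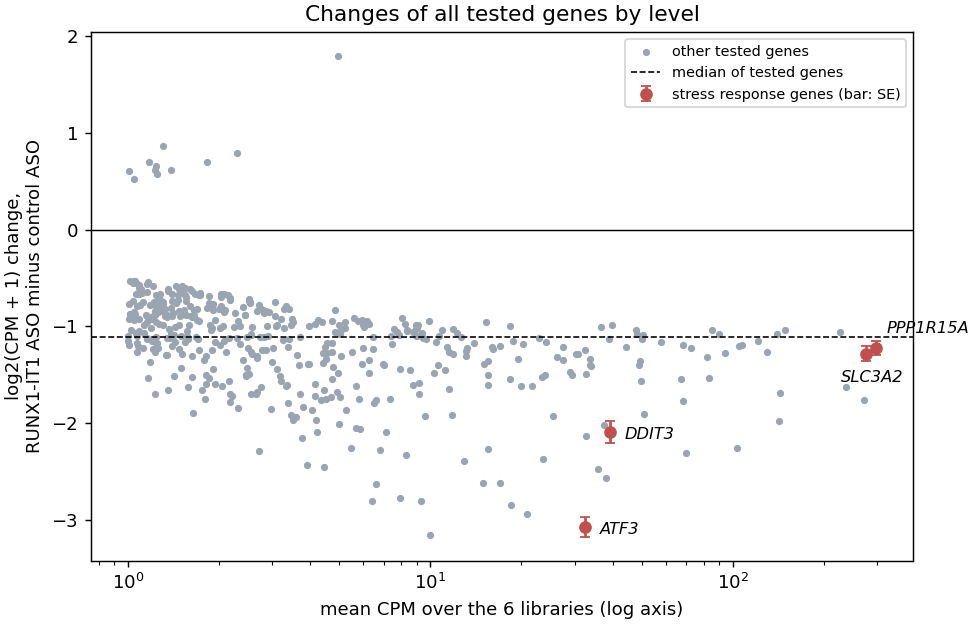
Change on the log2(CPM + 1) scale (RUNX1-IT1 ASO minus control ASO) of the 489 tested genes against their mean CPM over 6 libraries on a log axis, with the 4 stress response genes in red and their standard errors as bars. PPP1R15A and SLC3A2 lie near the dashed median of -1.11, while ATF3 at -3.07 and DDIT3 at -2.09 lie far below it on this scale.

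The place of the 4 genes in the table depended on the scale. With edgeR on reads recovered from the CPM values, where low genes are not shrunk by a pseudocount of 1, the median change of the 489 genes was -1.57, with quartiles at -2.13 and -1.22. ATF3 at -3.25 was then below the lower quartile, DDIT3 at -2.16 was close to it, SLC3A2 at -1.28 lay between the median and the upper quartile, and PPP1R15A at -1.22 was at the upper quartile.

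Ratios of the CPM of 1 gene to another in the same library were compared next, since such a ratio does not depend on how libraries are scaled to each other. The size of a ratio depends on transcript lengths. Its difference between groups does not if each gene keeps the same mix of transcripts in both, which was not measured. All 6 pairs were computed. ATF3 was 0.453, 0.453 and 0.387 of DDIT3 in RUNX1-IT1 ASO replicates 1, 2 and 3, and 0.939, 0.979 and 0.842 of it in control ASO replicates 1, 2 and 3. The ratio was 2.14-fold lower under the RUNX1-IT1 ASO, with no overlap between groups.

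Relative to PPP1R15A, ATF3 was 0.0319 to 0.0383 in RUNX1-IT1 ASO libraries and 0.140 to 0.143 in control ASO libraries, 4.11-fold lower. Relative to SLC3A2, ATF3 was 3.95-fold lower, at 0.0365 to 0.0399 in RUNX1-IT1 ASO libraries and 0.144 to 0.155 in control ASO libraries. Against each of the other 3 genes, ATF3 was thus lower in all RUNX1-IT1 ASO libraries than in any control ASO library. DDIT3 lay between. Its ratio to PPP1R15A was 1.93-fold lower, at 0.0734 to 0.0845 in RUNX1-IT1 ASO libraries and 0.146 to 0.167 in control ASO libraries. Its ratio to SLC3A2 was 1.85-fold lower, at 0.0841 to 0.0943 in RUNX1-IT1 ASO libraries and 0.159 to 0.171 in control ASO libraries. Each of these 5 differences gave an unadjusted p = 0.10 in an exact two-sided permutation test. This is the smallest possible with 3 against 3, so none can pass 0.05. Ratios of other gene pairs were not computed, so how often such a separation occurs among listed genes was not tested.

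PPP1R15A and SLC3A2 were the pair whose ratio overlapped between groups. It was 1.15, 1.04 and 1.14 in RUNX1-IT1 ASO replicates 1, 2 and 3, and 1.08, 1.09 and 1.03 in control ASO replicates 1, 2 and 3. The difference was 0.06 on the log2 scale (exact permutation test, two-sided p = 0.30), which does not show that the 2 genes changed alike. It ranged from 0.03 to 0.10 when 1 library was left out.

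**Figure D3:**
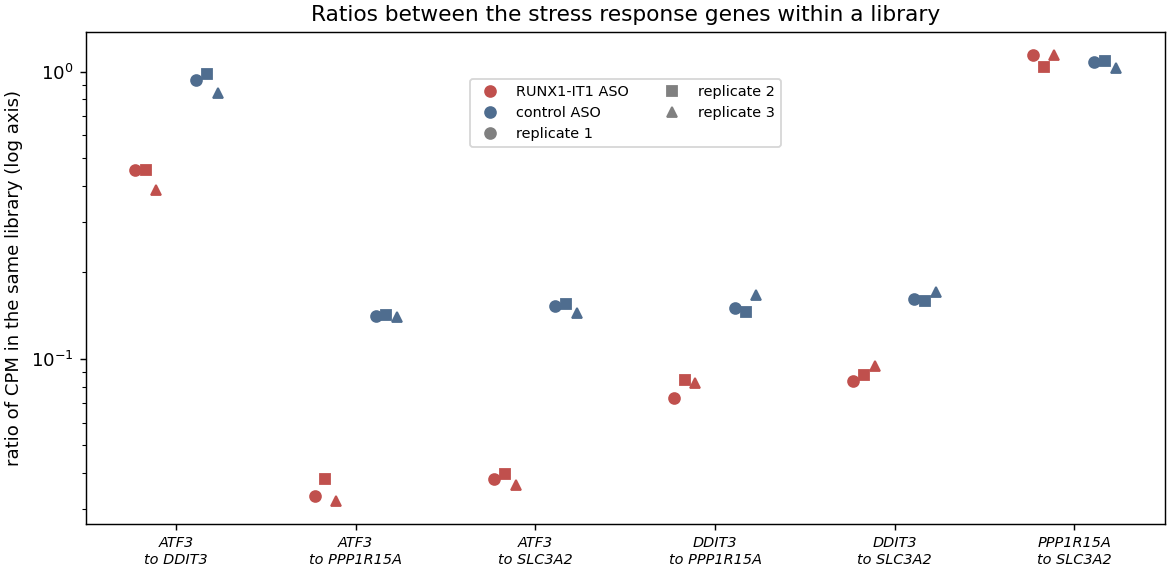
Ratio of CPM values of 2 genes in the same library on a log axis, for all 6 pairs, with RUNX1-IT1 ASO points left of control ASO points and 1 marker shape per replicate. The ratios of ATF3 to DDIT3, PPP1R15A and SLC3A2 are lower in all RUNX1-IT1 ASO libraries, as are those of DDIT3 to PPP1R15A and SLC3A2. The ratio of PPP1R15A to SLC3A2 overlaps between groups.

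As a share of the listed total, the 4 genes together made up 8.87, 10.1 and 9.65% in RUNX1-IT1 ASO replicates 1, 2 and 3, and 8.68, 8.67 and 8.76% in control ASO replicates 1, 2 and 3. PPP1R15A alone held 4.48 to 4.85% of the listed total in RUNX1-IT1 ASO libraries and 3.84 to 3.93% in control ASO libraries. SLC3A2 held 3.91 to 4.64% in RUNX1-IT1 ASO libraries and 3.61 to 3.74% in control ASO libraries. Both shares were higher in all RUNX1-IT1 ASO libraries than in any control ASO library, while the shares of ATF3 and DDIT3 were lower in all. How many other listed genes have shares that separate in this way was not counted. ATF3 held 0.149 to 0.185% in RUNX1-IT1 ASO libraries and 0.538 to 0.561% in control ASO libraries. DDIT3 held 0.329 to 0.408% in RUNX1-IT1 ASO libraries and 0.572 to 0.640% in control ASO libraries. So when libraries were rescaled to equal listed totals, which moved the median of all tested genes to -0.06 from -1.11, ATF3 stayed lower at -1.68 and DDIT3 at -0.65, while PPP1R15A turned to 0.28 and SLC3A2 to 0.22 (limma, adjusted p = 7.01e-07, 0.000324, 0.000792 and 0.0167). In that rescaled fit 24.1% of tested genes were called lower and 8.79% higher. Rescaling sets the listed total equal by construction, so these positive values say that the 2 genes lost less than that total did, and they are no measure of a rise in the cells.

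Of 225 genes on 8 lists that cover the stress pathway and its neighbours, 19 were listed, and 15 of these are other than the 4 genes. All 13 of the 15 that were tested fell, with a median of -1.39, where 97.5% of all tested genes fell with a median of -1.11. On equal listed totals the 13 split into 2 lower, 2 higher and 9 without a call. Of all tested genes 24.1% were then lower and 8.79% higher. The list of eIF2 kinases, eIF2, its exchange factor and its phosphatase had 1 of 22 genes listed, PPP1R15A itself. No gene was listed of the 18 serine, glycine, asparagine, proline and one-carbon enzymes, the 21 aminoacyl-tRNA synthetase and tRNA export genes, or the 32 genes of endoplasmic reticulum chaperones and the IRE1 and ATF6 arms. ATF4 and its textbook targets TRIB3, CHAC1, ASNS and SESN2 are not listed either. Since the tables appear to hold only genes about 2-fold or more apart, the levels of unlisted genes were not analysed here.

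Among 52 bZIP transcription factor genes, 7 were listed and each was called lower (median -2.09), as were 97.5% of all tested genes. On equal listed totals 4 kept that call, ATF3 and DDIT3 among them, 3 had no call and 0 were higher, where 24.1% of all tested genes were lower and 8.79% higher. Beside ATF3 and DDIT3 these were the AP-1 subunits FOSB, FOS and JUNB, and TEF and DBP, which bind D-box elements and are best known as outputs of the circadian clock. FOSB stood at 10.9, 9.95 and 9.90 CPM in replicates 1, 2 and 3 given the RUNX1-IT1 ASO, and at 66.5, 62.2 and 68.9 CPM in replicates 1, 2 and 3 given the control ASO, a change of -2.57 ± 0.09. FOS stood at 6.10, 6.83 and 8.03 CPM in RUNX1-IT1 ASO libraries and at 40.1, 36.4 and 44.0 CPM in control ASO libraries, a change of -2.37 ± 0.11. Neither gene overlapped between groups, nor did 97.1% of all tested genes in that direction. ATF3 had the lowest change of the 7, also by the ratio of means.

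JUNB averaged 42.3 ± 5.13 CPM under the RUNX1-IT1 ASO and 124 ± 11.6 CPM under the control ASO (SD, n = 3 each). Its change was -1.53 ± 0.10 and turned to -0.06, not called, after rescaling. TEF averaged 4.09 ± 0.355 CPM under the RUNX1-IT1 ASO and 14.3 ± 0.299 CPM under the control ASO, a change of -1.58 ± 0.10, and lost its call after rescaling at -0.27. DBP had 6 to 14 reads per RUNX1-IT1 ASO library and 25 to 58 per control ASO library. It changed by -0.95 ± 0.18 and stood at -0.23 after rescaling, not called.

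Of 40 output genes of ATF4 and CHOP, 11 were listed, 10 were tested and each was called lower (median -1.33), which is the rate of the whole table (97.5%). On equal listed totals 2 were lower, 3 higher and 5 had no call, around a median of -0.05, where 24.1% of all tested genes were lower and 8.79% higher. The 2 lower were ATF3 and DDIT3, and the 3 higher were PPP1R15A, PMAIP1 and TXNIP. PMAIP1, which encodes the pro-apoptotic protein NOXA, stood at 51.6, 58.9 and 54.1 CPM in replicates 1, 2 and 3 given the RUNX1-IT1 ASO, and at 144, 119.9 and 136 CPM in replicates 1, 2 and 3 given the control ASO. It was 2.43-fold lower, close to the 2.42-fold of SLC3A2. TXNIP, a thioredoxin-binding protein gene, averaged 65.0 ± 2.05 CPM under the RUNX1-IT1 ASO and 150.0 ± 3.17 CPM under the control ASO, a change of -1.19 ± 0.07.

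CDKN1A, the p21 cell cycle inhibitor gene, averaged 16.7 ± 1.16 CPM in RUNX1-IT1 ASO libraries and 48.6 ± 5.81 CPM in control ASO libraries. Its groups did not overlap, like those of 97.1% of all tested genes in that direction. GDF15, a secreted stress hormone gene, stood at 2.62, 3.07 and 2.75 CPM in RUNX1-IT1 ASO libraries, which is 47 to 57 reads, and at 8.82, 7.88 and 10.5 CPM in control ASO libraries. ERO1B, an oxidase of the endoplasmic reticulum, was 3.06-fold lower. BCL2L11, which encodes the pro-apoptotic protein BIM, was 2.20-fold lower, and NUPR1, a small stress-induced chromatin protein gene, was 2.98-fold lower. CDKN1A, GDF15, ERO1B, BCL2L11 and NUPR1 were called lower as deposited (limma). CDKN1A changed by -1.49, GDF15 by -1.39, ERO1B by -1.45 and BCL2L11 by -1.04. None of these 5 was called after rescaling, at -0.04, -0.16, -0.10, 0.33 and -0.06. Most tested genes had no call there either, with 24.1% called lower and 8.79% higher. INHBE, an activin subunit gene, was under the mean level tested, at 0.161 to 0.410 CPM under the RUNX1-IT1 ASO and 0.695 to 1.59 CPM under the control ASO.

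Of 26 amino acid transporter genes, SLC3A2 and SLC7A7 were listed and both fell. SLC7A7 encodes a light chain that pairs with the SLC3A2 product to exchange cationic and neutral amino acids. It stood at 0.695, 0.645 and 0.527 CPM in replicates 1, 2 and 3 given the RUNX1-IT1 ASO, and at 2.44, 2.26 and 2.92 CPM in replicates 1, 2 and 3 given the control ASO. By group means it was 4.08-fold lower, a larger factor than the 2.42-fold of SLC3A2. On the log2(CPM + 1) scale, which shrinks so low a gene, its change was -1.12 ± 0.13 (SE, limma, adjusted p = 2.13e-06), and -0.31 after rescaling, not called, where SLC3A2 stood at 0.22. The light chain genes SLC7A5 and SLC7A11 are not listed. Of 22 heat shock genes HSPA6 was listed, at 1 to 5 reads per RUNX1-IT1 ASO library and 14 to 32 reads per control ASO library, a level that was not tested.

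**Figure D4:**
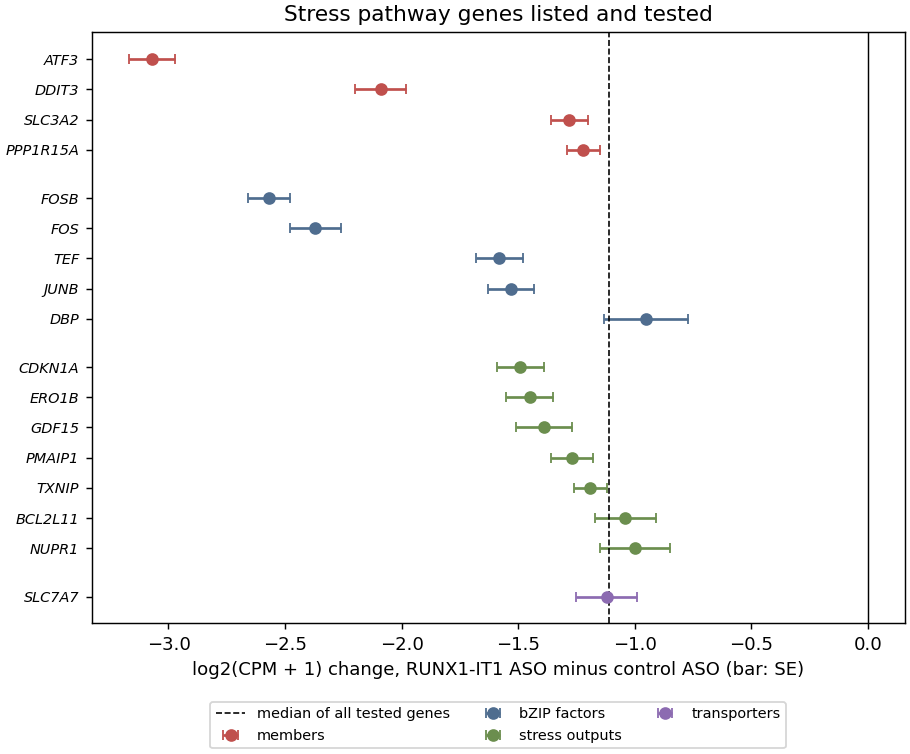
Change on the log2(CPM + 1) scale (RUNX1-IT1 ASO minus control ASO, bars: SE) of the 4 stress response genes and of the 13 other tested genes of the stress lists, grouped by role. All 17 lie below 0, and FOSB and FOS are the other genes with changes near those of ATF3 and DDIT3.

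Genes whose profile over the 6 libraries was most like that of each of the 4 were found by the mean absolute difference of log2(CPM + 1) values after centring each gene on its own mean, among 161 other genes whose mean reached 5 CPM. Nearest to ATF3 were RRAD (0.11), ARC (0.112) and SNAI1 (0.115), which encode a Ras-related GTPase, an immediate early protein best known from neurons and a repressor of the E-cadherin gene. By group means RRAD was 15.4-fold lower, ARC 9.41-fold and SNAI1 8.68-fold, against 9.54-fold for ATF3. RRAD averaged 1.22 CPM in RUNX1-IT1 ASO libraries, a level at which the log2(CPM + 1) scale shrinks the change. Nearest to DDIT3 were GADD45B (0.057), IER5L (0.062) and CDKN2B (0.084), of which GADD45B and CDKN2B are growth arrest genes. GADD45B stood at 48.9, 59.5 and 63.1 CPM in replicates 1, 2 and 3 given the RUNX1-IT1 ASO, and at 228, 212 and 242 CPM in replicates 1, 2 and 3 given the control ASO.

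PPP1R15A had nearer neighbours, with SLC16A6 (0.022), a monocarboxylate transporter family gene, SAT1 (0.031), the polyamine acetyltransferase gene, and CITED2 (0.036), a CBP-binding regulator gene. The log2(CPM + 1) scale shrinks low genes, so a near profile need not be a like factor. SLC16A6 averaged 2.84 CPM in RUNX1-IT1 ASO libraries and 8.19 CPM in control ASO libraries, 2.89-fold lower, against 2.33-fold for PPP1R15A. CITED2 was 2.23-fold lower. SAT1 averaged 17.2 ± 1.63 CPM in RUNX1-IT1 ASO libraries and 43.1 ± 0.869 CPM in control ASO libraries, 2.50-fold lower. Nearest to SLC3A2 were NFKBIE (0.039), an inhibitor of NF-kB, C12orf57 (0.041) and LMCD1 (0.045). All 12 neighbours of the 4 genes had their lowest RUNX1-IT1 ASO value in replicate 1. Replicate 1 also had the lowest listed sum of its group, and the neighbours were picked on these same libraries. That count is therefore no separate result about them. How many genes lie close to each of the 4 was not counted, and likeness over 6 libraries of 2 groups rests mainly on the size of the group difference.

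**Figure D5:**
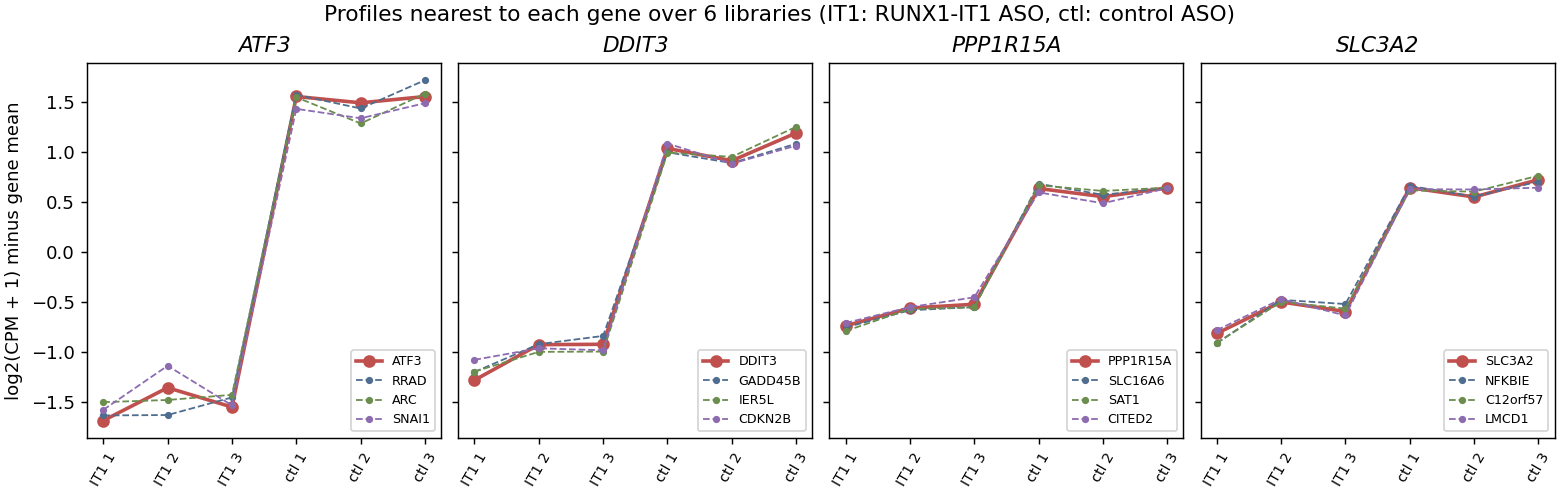
log2(CPM + 1) minus the mean of each gene in the 6 libraries (IT1: RUNX1-IT1 ASO, ctl: control ASO, numbers: replicates) for each of the 4 genes, solid, and the 3 genes nearest to it, dashed. ATF3 and its neighbours span about 3 log2 units between groups, PPP1R15A and SLC3A2 and their neighbours little more than 1.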

How the data were processed

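The tables deposited by the authors give CPM, that is reads relative to library size, a unit read from the values themselves. Per the submitters' processing notes the build was GRCh38, with FastQC 0.11.9 and fastp 0.22.0. Aligner, counter, annotation, strand setting and gene filter are not given in the sources used here. In every library all 1113 values (100%) lay within 0.1 of a whole multiple of 1 step, which implies 17100000 to 21200000 reads per library. The smallest value above 0 was 1 step in each RUNX1-IT1 ASO library and 2, 5 and 2 steps in control ASO replicates 1, 2 and 3, where steps had no common divisor above 1. A floor of 3 reads is 0.141 to 0.176 CPM, for counting error only.

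With limma 3.58.1 in R 4.3.3, log2(CPM + 1) of the 489 genes that had a symbol and averaged 1 CPM or more was fitted with a mean-variance trend and group as the only term. Benjamini-Hochberg adjustment ran over all 489, and an adjusted p under 0.05 was called. Changes subtract the control ASO mean from the RUNX1-IT1 ASO mean and understate low genes. The 342 entries without a symbol stayed out. Alternatives included edgeR 4.0.16 and DESeq2 1.42.0 on recovered reads with implied totals as library sizes. The scripts were tested on simulated data. Replicates differed beyond sampling noise (chi-square per degree of freedom 1.97 to 2.79).

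The 4 genes and the lists were chosen with earlier results of these data known. Genes were named if they are among the 4, if they stand on a stress list and in the tables, or if they are among the 3 nearest in profile. One gene of the lists is not reported here and is left out of the list counts. Marker genes and unlisted genes named in the text were added by hand. Promoters are from RefSeq (GRCh38.p14) and matched all 4 genes.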

Additional observations from a re-analysis of the deposited data

How the results depend on the processing

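Rescaling to the same listed total in every library was the alternative that turned a direction. PPP1R15A moved to 0.28 and SLC3A2 to 0.22, and over all tested genes 118 were then called lower and 43 higher, against 477 and 10 as deposited (limma). ATF3 and DDIT3 kept their direction and their call under all 15 alternatives run. Counts over all genes moved with the genes that the filter let in. They were 750 lower and 19 higher with no filter on low values. The 10 genes called higher as deposited averaged 1.01 to 2.29 CPM. A filter at a mean of at least 5 CPM therefore removed all of them and left 165 lower and 0 higher. At that filter 0 genes were higher at an unadjusted p under 0.05, in limma and in edgeR. With entries without a symbol kept, 20 were higher. On recovered reads edgeR called 478 lower and 11 higher and DESeq2 called 475 and 10, with ATF3 at -3.25 and DDIT3 at -2.16 in both. Leaving out 1 library at a time gave -3.15 to -2.99 for ATF3, -2.16 to -1.97 for DDIT3, -1.26 to -1.15 for PPP1R15A and -1.34 to -1.19 for SLC3A2. With a replicate block 478 genes were lower and 10 higher, and the 4 changes stayed at -3.07, -2.09, -1.22 and -1.28. Deviations of same-numbered libraries correlated at -0.24, -0.10 and -0.02, and those of differently numbered ones at -0.12 to 0.18. With 3 libraries per group, each centred on its own mean, these values cannot tell whether the numbers pair the libraries. The within-library ratios kept their sign in every run, from -1.16 to -0.98 for ATF3 to DDIT3 and from 0.03 to 0.10 for PPP1R15A to SLC3A2. At 101 to 131 reads per RUNX1-IT1 ASO library, ATF3 is the member most limited by counting.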
